A study of Mus musculus with 2 samples.

Results

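The natriuretic peptide locus of the mouse was described peak by peak in a map of open chromatin from the heart. Its members were all peaks that lay wholly between positions 147940000 and 148045000 of chromosome 4 (GRCm38), a window of 105 kb that holds Nppb, Nppa and Clcn6 and most of the neighbouring gene 2510039O18Rik. There were 10 such peaks of 58076 in all, numbered 1 to 10 here along the chromosome. The window was chosen by the knockout and control counts of its peaks, which were known to differ, so the ratios below describe these libraries and are not tests.

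ATAC-seq, in which Tn5 transposase inserts adapters into open DNA, was run on heart nuclei of mice 15 days old on normal chow. The control library came from Ythdc1flox/flox mice and the knockout library from Ythdc1 CKO mice, which carry a cardiac deletion of the same gene. Ythdc1 encodes a nuclear protein that reads N6-methyladenosine in RNA. The comparison asks how its deletion in the heart affects accessibility. Both libraries are labelled as heart. The sources used here state neither the chamber, nor the number of animals per library, nor the promoter that drives the Cre recombinase. There was 1 library per genotype, so no difference has a replicate check. Intervals are exact (Clopper-Pearson) 95% intervals of a ratio and cover counting error only.

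Counts over all peaks summed to 6755590 for the control and 6466537 for the knockout, with a median of 65 and 60 per peak. Levels are given as counts and as CPM, in which the counts of each library are scaled to the same total over all peaks. The only peak assigned to Ythdc1, at its promoter, held 358 and 314 counts, a ratio of 0.916 (interval 0.785 to 1.07). Where the deletion lies is not stated, so this peak does not check the genotype. A gain of counts could come from more nuclei with an open site or from more opening per nucleus, and these cannot be told apart in bulk tissue.

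Nppa and Nppb encode atrial and B-type natriuretic peptide, hormones that heart muscle cells release when they are stretched and that promote salt excretion and widen blood vessels through cGMP. The genes lie side by side and are a textbook pair of cardiac stress genes. Nppa is active in atria and in the embryonic ventricle, falls in the ventricle around birth and returns there under load. Clcn6 encodes a chloride-proton exchanger of late endosomes and is transcribed towards Nppa, so that the 3′ ends of Nppa and Clcn6 face each other.

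The stretches before the starts of the 3 genes are shown because their promoters differed in whether a peak was present, as described after them. They come from RefSeq (GRCm38.p6) and read 5′ to 3′ on the strand of the gene. Capitals mark matches to the motifs searched, and a stretch without capitals holds none. The GATA motif was searched only as AGATAA, so close variants, such as tgataa in the Nppa stretch, stay in lower case. The Nppa stretch is chr4:148000472-148000721 on the plus strand, the Nppb stretch is chr4:147985650-147985785 on the plus strand, and the Clcn6 stretch is chr4:148038814-148039063 on the minus strand.
Nppa: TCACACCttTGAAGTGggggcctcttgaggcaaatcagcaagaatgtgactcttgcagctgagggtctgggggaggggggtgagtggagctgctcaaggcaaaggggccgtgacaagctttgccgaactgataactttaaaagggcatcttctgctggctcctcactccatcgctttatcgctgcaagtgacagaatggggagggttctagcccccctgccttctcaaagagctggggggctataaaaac
Nppb: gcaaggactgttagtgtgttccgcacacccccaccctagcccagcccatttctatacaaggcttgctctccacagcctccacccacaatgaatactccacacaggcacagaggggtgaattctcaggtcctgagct
Clcn6: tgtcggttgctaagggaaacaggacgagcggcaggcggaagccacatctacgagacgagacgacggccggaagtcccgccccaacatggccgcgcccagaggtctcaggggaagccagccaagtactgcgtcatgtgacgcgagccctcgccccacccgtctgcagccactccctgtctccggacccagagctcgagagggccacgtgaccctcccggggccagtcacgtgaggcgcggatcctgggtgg

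In the Nppa stretch the capitals are a T-box match (GGTGTGA, here on the minus strand) from base -250 to -244 and an NKX match (TNAAGTG) from base -241 to -235, counted from the start of the gene. These motifs overlap no other motif searched there, and 3.98% and 11.5% of 32851 RefSeq promoter windows of 300 bases held them on either strand. The Nppb window held a TEAD match (CATTCC, minus strand) at bases 10 to 15 after the gene's start and a GATA match (AGATAA) at bases 31 to 36, found in 14.7% and 11.2% of promoter windows. These bases are counted from the start of the gene span, 147985786. The window, 147985650 to 147985949, is laid on a RefSeq start further inside the span, so both matches lie before the start that sets the window. The Nppb window thus reaches further past the start of its gene span than the Nppa window does. The AP-1 motif (TGANTCA) and the REST, glucocorticoid receptor, MEF2 and CArG box motifs had no match in the 3 windows. In that order they occurred in 7.81%, 0.0517%, 0.00913%, 3.19% and 1.63% of promoter windows. They are so rare that nothing is read from their absence in 3 windows. A match is a run of letters and not a measured binding site.

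The Nppa and Nppb windows were alike in composition, with a GC content of 54.7% and 55.7% and with 6 and 7 CpG dinucleotides. The Clcn6 window had a GC content of 67.3% and 26 CpG. Over the 21263 windows of protein-coding genes the median was 56.3% GC and 13 CpG. A peak of the table overlapped the windows of Nppb and Clcn6, and none overlapped the window of Nppa. Of all protein-coding windows 54.3% overlapped a peak. A CpG limit was set at the higher count of the Nppa and Nppb windows, so these genes define the class. Of the 8184 windows with at most 7 CpG 12% did, against 80.8% of the 13079 windows with more. The Nppb promoter was thus among the minority of CpG-poor promoters with a peak, and the Nppa promoter was among the majority without one.

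Across the locus, accessibility was much higher in the knockout library at 2 neighbouring peaks past the 3′ end of Nppa. It was moderately higher at a broad peak past the 3′ end of Nppb, and nearly equal at the promoters of Nppb, Clcn6 and 2510039O18Rik. The table classes the 2 neighbouring peaks within the promoter region of another transcript, as described below. With a fixed rule of at least a 2-fold difference in CPM, 3 of the 10 peaks were higher in the knockout (peaks 5, 8 and 9) and 0 were lower. Of all 58076 peaks, 6.09% were higher and 8.96% lower by the same rule, and nothing is read from the comparison because the window was chosen for this contrast. That split moved with the scaling, to 2326 higher and 7129 lower on the authors' RPM scale and to 5133 and 2944 after a loess trend was removed, against 3537 and 5201 here, while the locus had 3 higher and 0 lower on each. The ratio was above 1 at 7 of the 10 peaks and below 1 at 3. Peaks 1 and 10 are among the 7, and their log2 fold changes in the authors' deposited table, on the RPM scale, were -0.11 and -0.14. Peak 6, among the 3, stood at a log2 ratio of 0.01 with TMM scaling or median centring. The counting interval lay above 1 at 5 peaks (4, 5, 7, 8 and 9) and held 1 at the other 5, while 17.7% of all peaks had an interval above 1 and 21.7% one below 1. By the authors' calls, 5 peaks were present in both libraries, 2 only in the control and 3 only in the knockout. The shares over all peaks were 55%, 29.1% and 15.9% in that order. The 3 called only in the knockout were peaks 5, 8 and 9, the same that passed the 2-fold rule. Of all 9234 peaks called in the knockout alone, 3263 were 2-fold higher and 0 lower, so the call and the rule are not independent.

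**Figure D1:**
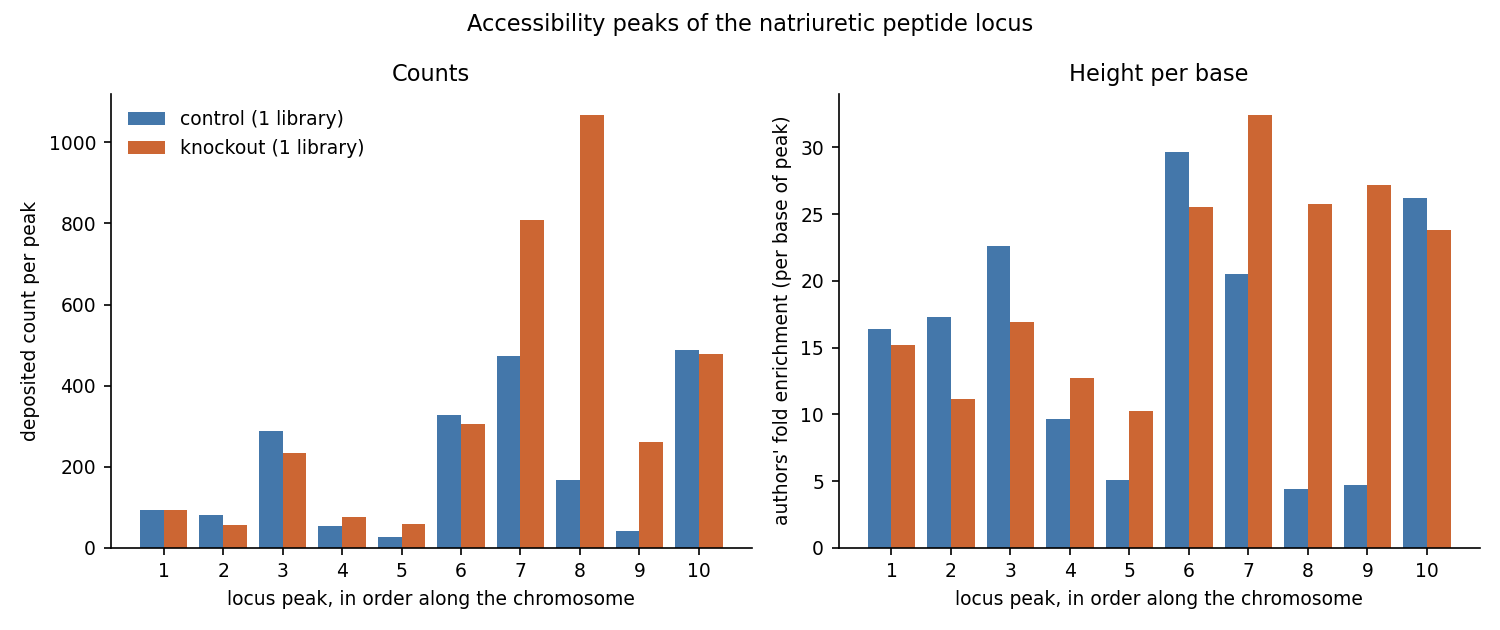
Counts (left) and the authors' fold enrichment (right) of the 10 peaks in the control and the knockout library, 1 bar per library. Peak 8 went from 168 to 1067 counts and peak 9 from 41 to 260, while peaks 6 and 10, at promoters, stood at nearly the same height in both.

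Nppb, the gene of B-type natriuretic peptide, spans 147985786 to 147987205 on the plus strand, and the table assigns peaks 3 to 7 to it. Its promoter peak, peak 6 (147985540 to 147986135), held 328 control and 305 knockout counts, or 48.6 and 47.2 CPM. The ratio was 0.971 (interval 0.828 to 1.14). The 2 summits of the peak lay 47 and 27 bases before the gene's start, inside the Nppb stretch printed above. The promoter was open in both libraries, with a fold enrichment by the authors of 29.6 and 25.5, against medians over all peaks of 10.03 and 8.60.

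Past the 3′ end of Nppb the knockout library was higher. Peak 7 (147987795 to 147989036) began 590 bases after the end of the gene, was 1242 bases wide and had 5 summits. The table classes this peak within the promoter range, 2 to 3 kb from the Nppb start. It held 474 control and 808 knockout counts, or 70.2 and 125.0 CPM, and was called in both. The ratio was 1.78 (interval 1.59 to 2.00), the largest below the 2-fold rule in the locus. In these libraries the ratio was thus 0.971 at the Nppb promoter and 1.78 at the peak past its 3′ end. Their intervals cover counting error only, so they do not test whether the peaks differ between animals.

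Before Nppb, the table assigns 3 distal peaks to it, peaks 3 to 5. Peak 5 (147979651 to 147979936), 5852 bases before the start, had 26 control and 58 knockout counts and was called in the knockout alone. Its ratio of 2.33 (interval 1.44 to 3.86) was the smallest past the rule in the locus. Peak 4 (147969404 to 147969708), 16080 bases before the start, had 54 and 77 counts and a ratio of 1.49 (1.04 to 2.15). Both rest on few counts, and their intervals are wide.

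Peak 3 (147963528 to 147964216), 21572 bases before the Nppb start, was a strong distal peak called in both libraries. It held 289 control and 233 knockout counts, a ratio of 0.842 (interval 0.706 to 1.004). Peak 2 (147962763 to 147963017) lay beside it and was called in the control alone, with 81 and 56 counts and a ratio of 0.722 (0.504 to 1.03). Both intervals held 1. Summed over the 5 peaks assigned to Nppb, the counts were 1171 and 1481, a ratio of 1.32 (1.22 to 1.43).

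Nppa, the gene of atrial natriuretic peptide, spans 148000722 to 148002074 on the plus strand. No peak of the table overlapped the gene, and the gap of 13965 bases between peaks 7 and 8 holds all of it. Peak 7 ended 11686 bases before the Nppa start. Peak 8 began 2280 bases after that start and 928 bases after the end of the gene. The measured accessibility next to Nppa was therefore on its 3′ side.

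Peak 8 (148003002 to 148005062) held 168 control and 1067 knockout counts, or 24.9 and 165.0 CPM. The ratio was 6.64 (interval 5.63 to 7.85), and the log2 ratio was 2.73. The authors called the peak in the knockout alone. It was 2061 bases wide, against a table median of 356, and only 11 of the 58076 peaks were wider. It had 4 summits, 1278, 1944, 2422 and 2645 bases past the end of Nppa. The first 2 summits lay between the genes and the last 2 inside Clcn6, into whose 3′ end the peak ran for 803 bases.

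Peak 9 (148005736 to 148006213) lay inside Clcn6, after a gap of 673 bases. It held 41 control and 260 knockout counts, or 6.07 and 40.2 CPM, and was called in the knockout alone. The ratio was 6.62 (interval 4.75 to 9.45), within the interval of peak 8 although peak 9 held far fewer counts. The 2 peaks thus differed about 4-fold in counts and hardly in ratio, while their widths were 2061 and 478 bases.

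In density the 2 peaks were weak in the control and among the strong peaks in the knockout. The authors' fold enrichment, counts per base of peak over an expectation, went from 4.40 to 25.8 at peak 8 and from 4.72 to 27.2 at peak 9. Among all peaks the control values stood at percentiles 5.48 and 6.51 and the knockout values at percentiles 96.9 and 97.5. The knockout values may be set beside those at the Nppb promoter (25.5) and at the Clcn6 promoter (23.8).

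The table gives peaks 8 and 9 to a minus-strand transcript of the Ensembl gene ENSMUSG00000086806 and classes both within that transcript's promoter region. The transcript runs from 148004014 down to 148001091. It overlaps most of Nppa, including its 3′ end, but not its start. A summit of peak 8, at 148004018, lies beside the start of that transcript. The transcript had no RefSeq symbol match, and ATAC-seq gives no strand, so the assignment rests on position alone. The same stretch is the 3′ side of both Nppa and Clcn6.

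Clcn6 spans 148004259 to 148038813 on the minus strand, so its start is at the high coordinate. Peak 10 (148038503 to 148039500) covered that start. It held 487 control and 477 knockout counts, or 72.1 and 73.8 CPM, a ratio of 1.02 (interval 0.900 to 1.16). Between peaks 9 and 10 there was no other peak over 32289 bases. For the 2 ends of Clcn6, the ratio in these libraries was thus 6.62 at peak 9 near the 3′ end and 1.02 at the promoter.

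At the low end of the window, peak 1 (147940771 to 147941081) lay at the promoter of 2510039O18Rik by the table's gene start, 147940895. The RefSeq start of that gene, 147939519, lies outside the window and the peak. Peak 1 held 94 counts in both libraries, a ratio of 1.04 (interval 0.776 to 1.41), although the authors called it in the control alone. This peak and the peaks at the Nppb and Clcn6 starts (1, 6 and 10) thus each had an interval that held 1.

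**Figure D2:**
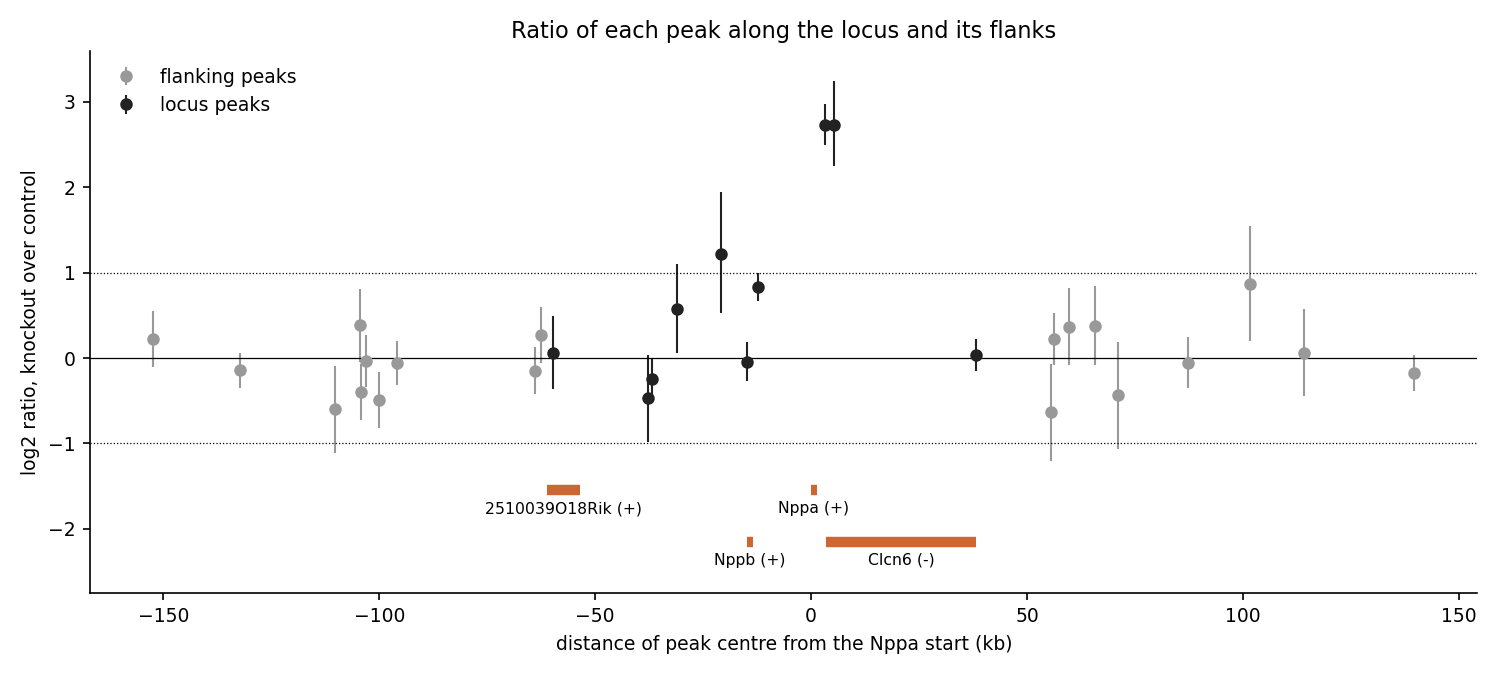
The log2 ratio of each peak, knockout over control, against the distance of its centre from the Nppa start in kb. Bars are 95% counting intervals, black points are the 10 locus peaks, grey points are the 19 peaks of the flanking windows, orange bars are genes and dotted lines mark 2-fold. The pair at 2.73 and 2.71 stands just past Nppa, and no flanking point passes a dotted line.

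Summed over the 10 peaks, the locus held 2042 control and 3435 knockout counts, a ratio of 1.76 (interval 1.66 to 1.86). Peaks 8 and 9 together went from 209 counts to 1327 (ratio 6.63, interval 5.73 to 7.71) and from 10.2% to 38.6% of the counts of the locus. Without them the other 8 peaks held 1833 and 2108 counts, a ratio of 1.20 (1.13 to 1.28), a sum chosen after seeing the data. These 2 peaks carried most of the difference in the sum.

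The flanking windows stood near 1. The 10 peaks in the window of equal length on the low side summed to 1971 and 1763 counts, a ratio of 0.934 (interval 0.876 to 0.997). On the high side 9 peaks summed to 1129 and 1091, a ratio of 1.01 (0.928 to 1.10). Of these 19 peaks 0 passed the 2-fold rule in either direction, and their log2 ratios ran from -0.62 to 0.85. The peak just outside the window on the low side had 144 and 166 counts (ratio 1.20), and that on the high side had 71 and 44 (ratio 0.647).

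Promoters of the neighbouring genes were also near 1. The ratio was 0.904 at Plod1, a collagen lysyl hydroxylase gene, 0.963 at Mfn2, which fuses mitochondria, and 0.907 at the promoter peak shared by Miip and Fv1. On the other side it was 0.964 at Agtrap, whose product binds the angiotensin receptor, and 0.886 at Mad2l2. Zfp933, a zinc finger gene, had 1.17. Draxin, like Nppa, had no promoter peak.

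**Figure D3:**
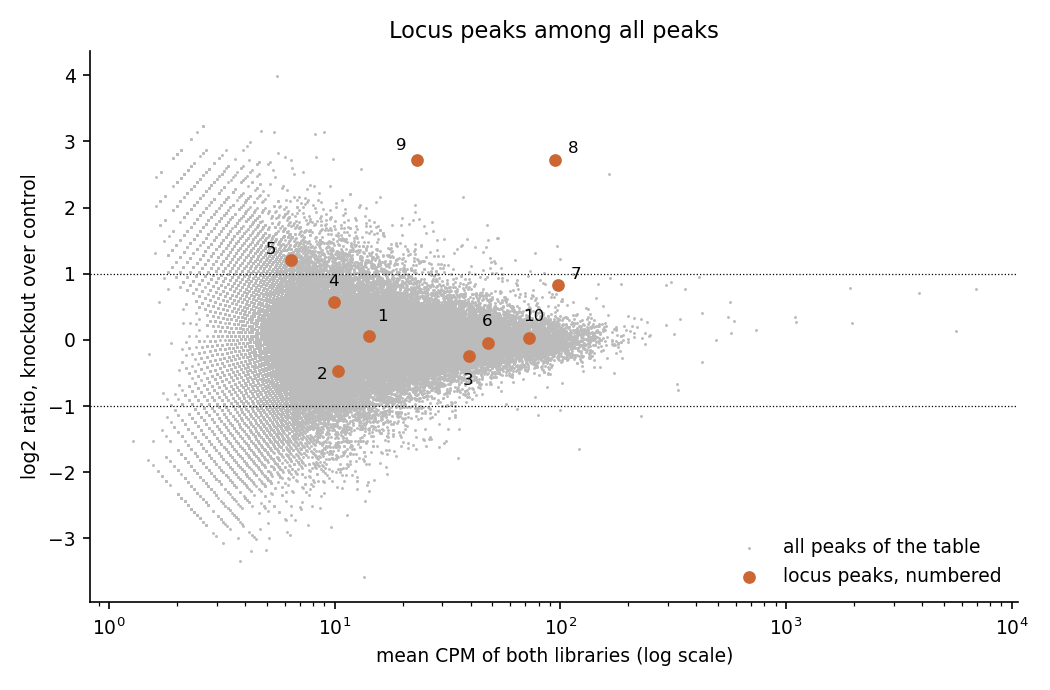
The log2 ratio of all 58076 peaks (grey) against their mean CPM in both libraries on a log axis, with the 10 locus peaks numbered in orange and dotted lines at 2-fold. Peaks 8 and 9 lie above the cloud at their signal, peak 7 lies just under the upper line, and peaks 1, 3, 6 and 10 lie near 0.

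Among all peaks of the table, 39 had a log2 ratio at or above that of peak 8, itself included, and 42 at or above that of peak 9. None of the other 41 had as many counts in the knockout library as peak 8. Among the 29032 peaks with a mean CPM above the median, peaks 8 and 9 ranked 2 and 3 in ratio, and they had the same ranks among the 3641 peaks of chromosome 4. Of the 9234 peaks called in the knockout alone (15.9% of the table), peak 8 had the most counts in that library. Counts are not divided by width, and peak 8 was 2061 bases wide, against a table median of 356. Per base, its fold enrichment in the knockout was 25.8, below 27.2 at peak 9 and 32.4 at peak 7. The ranks above place the members and are not independent of how the window was chosen.

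A list of 16 natriuretic pathway genes, which includes Nppa and Nppb, was read at promoters, with the strongest promoter peak of each gene. Of these 14 had such a peak, and Nppa and the clearance receptor gene Npr3 had none. The log2 ratio was above 0 at 6 and below 0 at 8, Nppb among them, with a median of -0.01, against -0.02 over 13351 genes with a promoter peak. By the 2-fold rule 0 were higher and 1 was lower. The same rule called 1.07% of all genes higher and 1.15% lower.

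By role, the third ligand gene, Nppc, which encodes C-type natriuretic peptide, had 87 control and 46 knockout counts, a ratio of 0.552 (interval 0.378 to 0.798). Corin, the protease that activates atrial natriuretic peptide, had 108 and 141 counts (1.36, 1.05 to 1.77). Furin, a protease that processes prohormones, had 93 and 112 (1.26, 0.947 to 1.67). The receptor genes, named for their role, were near 1, with 197 and 186 counts at Npr1 (0.986, 0.803 to 1.21) and 118 and 137 at Npr2 (1.21).

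Downstream, the list was split. Pde5a, a phosphodiesterase that degrades cGMP, had 194 control and 249 knockout counts (ratio 1.34, interval 1.11 to 1.63). Prkg2, a cGMP-dependent kinase gene, had 34 and 16 counts (0.492, 0.253 to 0.915) and was the gene past the 2-fold rule. The highest ratio at a pathway promoter was 1.36, at Corin, against 6.64 and 6.62 at peaks 8 and 9, which are not promoter peaks of a listed gene. Over all 61 peaks assigned to the list, 5 were 2-fold higher, peak 5 among them, and 4 lower. The shares over all peaks were 6.09% and 8.96%. Away from promoters, Pcsk6 of this list had the highest ratio, 4.18, with 6 and 24 counts, and the lowest, 0.295, with 39 and 11. These peaks were picked out after their values had been seen.

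Of 15 genes for transcription factors known to act on the natriuretic peptide genes, 14 had a promoter peak, with 5 above 0, 9 below 0, 0 past the 2-fold rule in either direction and a median log2 ratio of -0.13. The largest differences were at Nkx2-5, a cardiac homeobox gene, with 176 and 109 counts (log2 ratio -0.63), and Myocd, a cofactor of SRF, with 243 and 166 (-0.49). Mef2c stood at -0.34, Hand2 at -0.30 and Gata6 at 0.26. Tbx5 had no promoter peak.

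Because Nppa marks atria and the labels do not give the chamber, chamber markers are set beside the result. Of 12 atrial markers 8 had a promoter peak, 4 above 0 and 4 below, with a median log2 ratio of -0.02 and 0 higher and 1 lower by the 2-fold rule. Their summed level went from 229 CPM to 238 in the knockout. The largest differences were at Kcnj3, an atrial potassium channel gene, with 114 and 50 counts (-1.12), and Kcna5, another (0.54). Myl4 stood at 0.13 and Pam at 0.12. Sln, Myl7, Bmp10 and Gja5 had no promoter peak.

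Of 8 ventricular markers 7 had a promoter peak, 1 above 0 and 6 below, with a median log2 ratio of -0.66 and 0 higher and 2 lower by the 2-fold rule. Their summed level went from 319 CPM to 243. Lrrc10 had 141 and 60 counts (-1.16), Myh7, the slow myosin heavy chain, 281 and 134 (-1.0), Kcnh2 295 and 145 (-0.96), and Myl2, the ventricular light chain, 386 and 233 (-0.66). The Myl2 peak, whose value is the median, lies at a RefSeq start of the gene, but the table classes it as distal. By the table's promoter class alone 6 genes remained with a median of -0.84, and with the mean over each gene's promoter peaks the median was -0.35. Myl3 stood at -0.39. Irx4 had no promoter peak.

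Over all peaks assigned to the markers, a reading chosen after seeing the data, the atrial genes had 32 peaks, 8 higher and 2 lower by the 2-fold rule, with 16 above 0 and a median log2 ratio of 0.06. The ventricular genes had 25 peaks, 0 higher and 4 lower, with 5 above 0 and a median of -0.45. The general heart muscle genes had 51 peaks, 1 higher and 4 lower, with 14 above 0 and a median of -0.39, so lower values were not limited to ventricular markers. Of all 58076 peaks, 6.09% were higher and 8.96% lower, and the median was -0.05. The atrial peaks moved both ways, but of those past the 2-fold rule 8 were higher and 2 lower. Sln, an atrial regulator of the calcium pump, had a peak with 8 and 25 counts, and Myl7, the atrial light chain, had peaks with 18 and 51 and with 22 and 48. These peaks, picked out after their values had been seen, were called in the knockout alone and are small beside peak 8. The Dkk3 peaks away from its promoter were all higher, with 63 and 111, 36 and 91, 89 and 158, and 89 and 127 counts. Its promoter peak had 57 and 53. Pam, which encodes a peptide-amidating enzyme, had peaks with 19 and 75 counts, 17 and 45, and 12 and 31. Other Pam peaks had 31 and 9 and 70 and 42. Kcna5 had peaks with 9 and 31, with 37 and 66 and with 109 and 71. Bmp10 had one with 59 and 52, and its interval (0.622 to 1.36) held 1. The part of chamber make-up in the result was not tested.

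**Figure D4:**
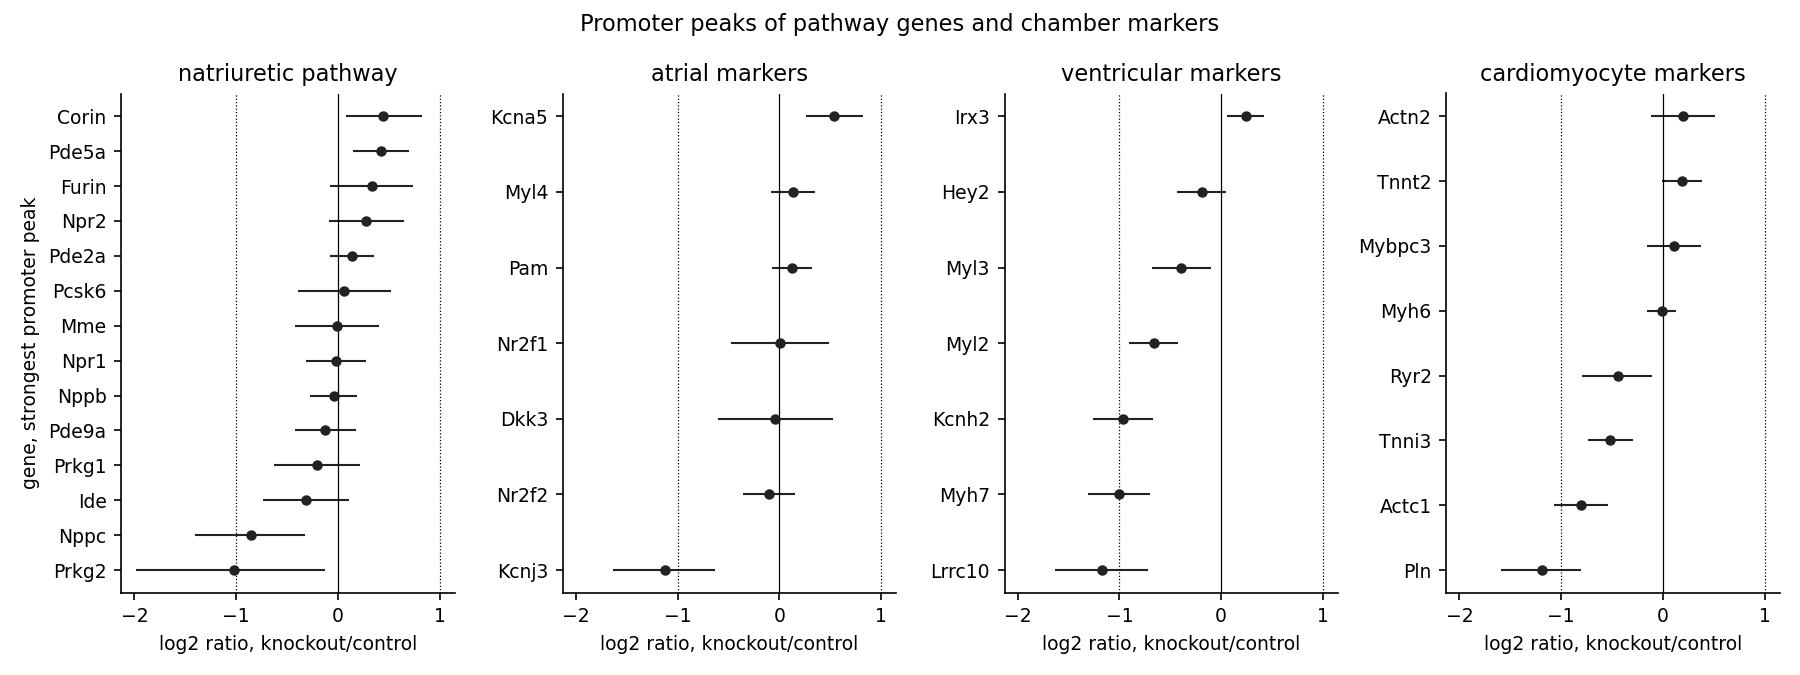
The log2 ratio of the strongest promoter peak of each gene, with 95% counting intervals, in 4 lists: natriuretic pathway, atrial (7 of the 8 genes with a peak), ventricular and general heart muscle markers. The ventricular genes lie mostly below 0, with a median of -0.66, and the pathway and atrial genes lie on both sides.

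Other cell types were read in the same way. All 8 general heart muscle markers had a promoter peak, 3 above 0 and 5 below, with a median of -0.23, from 406 to 358 CPM in sum. Pln, which restrains the calcium pump, had 186 and 78 counts (-1.19), Actc1 stood at -0.80, Tnni3 at -0.52, Ryr2 at -0.44 and Actn2 at 0.20. The 6 fibroblast markers had a median of 0.37 and went from 86.9 to 116 CPM in sum, with 4 above 0 and 2 below. Col1a2 stood at 0.83, Pdgfra at 0.51, Tcf21 at 0.23, Col1a1 at -0.14 and Dcn at -0.76. Postn passed the 2-fold rule with 37 and 74 counts at a peak within 1 kb of a RefSeq start but not of the start in the table, while 3 more distant Postn peaks were over 2-fold lower (45 and 16, 29 and 12, 66 and 12 counts). By the table's promoter class alone the fibroblast median was 0.05. The 6 endothelial markers had a median of 0.20, from 122 to 143 CPM. Of 5 myeloid markers 0 had a promoter peak, and 4 of 5 conduction markers had a median of 0.32, from 33.5 to 36.0 CPM. The part of cell make-up in the gain at peaks 8 and 9 was not tested.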

How the data were processed

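Per the submitters' processing notes, BWA, MACS2 and GRCm38.p6 were used. The sources used here do not state read filters, duplicate removal, the Tn5 shift or what was counted. One deposited table holds 58076 merged peaks, with the authors' raw counts per peak, per the file headers. Coordinates are printed as the table gives them. The deposited RPM values equal the count plus 1, multiplied by 0.01965 for the control and by 0.01822 for the knockout. The authors' fold enrichment is a ratio of counts per base to an expectation, and the deposited log2 fold change is the log2 ratio of their RPM values.

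From the counts, CPM over all peaks was computed (Python 3.11.15, pandas 2.3.3, scipy 1.17.1), with 0.5 counts added for log2 ratios and none for ratios with intervals. With 1 library per genotype no p-value was computed. A 2-fold difference was a rule of size. Promoter peaks were those the authors class within 1 kb of the start of a matched gene, or within 1 kb of a RefSeq start, a rule set after values had been seen. Identifiers were matched to RefSeq symbols by position, 14138 of 24480 (57.8%) and 96.2% of those with gene ontology terms. The members and gene lists were chosen with earlier results of these data known. Named genes were every locus peak, genes within 100 kb and up to 5 of each list with the largest absolute log2 ratio. The 5 peaks most alike to the leading peak, among those with a gene symbol, were also named. Others are said to be named for another reason, and some genes the rule covers are not reported here. Alternatives were TMM scaling (edgeR 4.0.16), the RPM scale, loess (statsmodels 0.14.6, span 0.3), a 1.5-fold rule, other pseudocounts and filters. Ratios and intervals were tested on simulated data.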

Additional observations from a re-analysis of the deposited data

How the results depend on the processing

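No paired analysis was possible because each genotype has 1 library, and for the same reason no library could be left out in turn. Of 60 values of the 10 locus peaks under 6 other settings each, 59 moved by less than their counting interval. Peak 7 moved to a log2 ratio of 0.66 on the authors' RPM scale. That scale shifts all log2 ratios by a median of -0.17, and on it peaks 1 and 10 stood at -0.11 and -0.14. The locus had 3 higher and 0 lower peaks on every scale, 4 higher by a 1.5-fold rule, and 2 among its peaks in the upper part of signal. Its summed ratio was 1.56 on the RPM scale and 1.20 without peaks 8 and 9, the latter chosen after seeing the data. Over all peaks, 2326 were 2-fold higher and 7129 lower on the RPM scale, 5133 were higher and 2944 lower after loess, and 618 were higher and 657 lower in the upper part of signal. The median of the natriuretic pathway was -0.01, and 0.14 with promoters up to 3 kb and -0.19 on the RPM scale. The ventricular median ran from -0.84 by the table's promoter class alone to -0.35 with the mean over promoter peaks, both chosen after seeing the data. Counts of 26 and 58 at peak 5 leave its ratio the least certain of those past 2-fold.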

Other observations

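Outside the locus, the peaks nearest to peak 8 by distance in log2 CPM of both libraries were at genes not in the natriuretic pathway list. All 5 were called in both libraries. The promoter of Ankrd1, a stretch-responsive cardiac ankyrin repeat gene, had 181 control and 507 knockout counts, a distance of 1.08. The promoter of Tns1, a focal adhesion gene, had 255 and 566. An intron peak assigned to Depp1 had 357 and 911, one assigned to Zbtb16, a zinc finger transcription factor gene, had 322 and 637, and one assigned to Mical2, an actin-oxidizing enzyme gene, had 168 and 458. The last had the same control count as peak 8, with counts not divided by width, and reached a ratio of 2.85, against 6.64 at peak 8.

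Npr3, the receptor that clears natriuretic peptides, had no promoter peak but had an intron peak with 68 control and 135 knockout counts, a ratio of 2.07 (interval 1.54 to 2.82). It was picked out after its values had been seen.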
